A study of Mus musculus with 12 samples.

Results

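The miR-26 family is the set of microRNAs cut from 3 mouse precursors, mmu-mir-26a-1, mmu-mir-26a-2 and mmu-mir-26b. Its reads were taken from tables of small RNA reads by precursor name, and each distinct read was counted once even where it matched several precursors. The 3 precursors are among 1532 seen in the tables, 997 of them annotated and 535 predicted by the submitters. Read rows numbered 5322 for mmu-mir-26a-1, 5521 for mmu-mir-26a-2 and 3443 for mmu-mir-26b. Together they held 2683704 of 62878432 reads, in 1302 distinct read sequences.

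The study sequenced small RNA from 12 samples that the source label calls retinal. Of these, 6 came from C57BL/KsJ-db/db mice given Keluoxin, a Chinese herbal medicine, and 6 from C57BL/KsJ-db/db mice labelled model. Mice of both groups thus carry the db/db genotype, a loss of the leptin receptor that gives obesity and diabetes, and no group without it is compared here. In the strain labels the digits ahead of BL increase along the sample list, and only the first label reads C57BL; the digits were not used. The labels used here give no age, dose or duration, and the extraction protocol mentions an exosome pellet although the source is retinal. Whether each library had its own animal is not stated, so a p-value here reflects the scatter between libraries, some of which may be technical.

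A microRNA is cut from one or both arms of a hairpin, the 5p and the 3p arm, and guides Argonaute to messenger RNAs mainly through bases 2 to 8, its seed. The miR-26 genes lie in introns of the genes for small C-terminal domain phosphatases, Ctdspl, Ctdsp2 and Ctdsp1. In human cells these enzymes act on RNA polymerase II, help REST to silence neuronal genes outside neurons, and remove phosphates from the retinoblastoma protein, a brake on the cell cycle. In zebrafish, miR-26b represses its own host ctdsp2 during neurogenesis. A messenger RNA that miR-26a is known to repress is Ezh2, and in human cells the uridyl transferase ZCCHC11 adds U to the end of miR-26.

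The sequences show what can and cannot be told apart in this family. The mature forms below are from RefSeq (GRCm38.p6), 5′ to 3′, with the seed in capitals.
miR-26a-5p: uUCAAGUAauccaggauaggcu
miR-26b-5p: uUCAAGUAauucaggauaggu
miR-26a-1-3p: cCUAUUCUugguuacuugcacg
miR-26a-2-3p: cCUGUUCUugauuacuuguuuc
miR-26b-3p: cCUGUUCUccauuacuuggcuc
All 5p forms share 1 seed, UCAAGUA. From miR-26a-5p to miR-26b-5p the differences are C11U and C21U, with positions counted from 1 at the 5′ end. Mir26a-1 and Mir26a-2 give the same mature 5p sequence, so among the mature forms only the 3p arm separates them. From miR-26a-1-3p to miR-26a-2-3p the differences are A4G, G11A, C19U, A20U, C21U and G22C. The seed of miR-26a-2-3p and miR-26b-3p is CUGUUCU, and that of miR-26a-1-3p is CUAUUCU. From miR-26a-2-3p to miR-26b-3p the differences are U9C, G10C, U19G and U20C.

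The hairpins are printed because each one decides which reads count as templated; both arms are in capitals.
Mir26a-1: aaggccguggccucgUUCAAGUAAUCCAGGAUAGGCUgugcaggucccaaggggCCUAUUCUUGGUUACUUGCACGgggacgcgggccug
Mir26a-2: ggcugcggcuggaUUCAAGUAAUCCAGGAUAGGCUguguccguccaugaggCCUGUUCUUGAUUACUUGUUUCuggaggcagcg
Mir26b: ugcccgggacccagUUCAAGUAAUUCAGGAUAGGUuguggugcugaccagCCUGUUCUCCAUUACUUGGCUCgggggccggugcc
The deposited precursors of 90, 84 and 85 nt were identical to these RefSeq hairpins. On GRCm38, Mir26a-1 lies at chr9:119031796-119031885 on the plus strand, in intron 5 of 7 of Ctdspl (principal transcript Ctdspl-201, an intron of 3283 nt). Mir26a-2 lies at chr10:126995530-126995613 on the plus strand, in intron 5 of 7 of Ctdsp2 (Ctdsp2-202, 1946 nt), and overlaps an exon of the shorter transcript Ctdsp2-201. Mir26b lies at chr1:74394310-74394394 on the plus strand, in intron 4 of 6 of Ctdsp1 (Ctdsp1-201, 564 nt). All 3 host genes are on the same strand as their microRNA, and their messenger RNAs were not measured here.

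The host transcripts were searched on the sense strand for the match to the shared 5p seed, TACTTGA. The longest 3′ UTR of Ctdsp2 held 1 match, gttgctctTACTTGAtttgcca with the match in capitals, at UTR position 1080, and those of Ctdspl and Ctdsp1 held none. The Ctdsp2 UTR is that of Ctdsp2-201, which is not the principal transcript. The UTR of the principal transcript, Ctdsp2-202, was not searched on its own. Among 3′ UTRs of like length, 23.1% held a match for the length of Ctdsp2, 22.1% for that of Ctdspl and 10.9% for that of Ctdsp1. A match is a description of the letters and not a tested site.

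Counted reads per library ranged between 1933375, in Keluoxin 5, and 7892147, in model 3. Levels below are in CPM, read counts over a common library size scaled by TMM. On the first principal component (52.1% of the variance) model 1 lay on the side of the Keluoxin libraries, and Keluoxin 4 held 9924 CPM of the lens and cornea microRNA miR-184-3p, against 69.8 to 178 CPM in the other Keluoxin libraries and 63.3 to 383 CPM in model libraries. Of the marker lists, the 5 neural retina arms summed to 268572 to 494937 CPM in Keluoxin and 461072 to 536151 CPM in model libraries, with miR-182-5p, a photoreceptor microRNA, lower (log2 −0.62, adjusted p 0.0207, edgeR) and its cluster partner miR-96-5p at log2 0.27 without passing (adjusted p 0.0549). The 2 pigment epithelium arms summed to 10143 to 12033 CPM in Keluoxin and 9305 to 12245 CPM in model libraries. Of the 2 blood arms tested, miR-451a-5p was higher in Keluoxin (log2 3.04, adjusted p 0.0159); the 2 summed to 51.5 to 718 CPM in Keluoxin and 54.2 to 71.7 CPM in model libraries. The endothelial miR-126a-3p was lower (log2 −0.65, adjusted p 0.00545), while its other arm, miR-126a-5p, stood at log2 0.27 without passing (adjusted p 0.235). The liver microRNA miR-122-5p was higher in Keluoxin (log2 2.53, adjusted p 0.0243), no mural, muscle or lens and cornea arm passed, and both leukocyte arms were below the filter. The part of these differences in the miR-26 values was not tested.

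miR-26 was abundant, and nearly all of it was the 5p strand. miR-26a-5p ranked 8 and miR-26b-5p ranked 23 of the 800 arms tested, by mean CPM. miR-26a-5p held 83.1% and miR-26b-5p 16.9% of the 2683448 family reads counted on arms, while 3p reads numbered 1133, or 0.0422%. The family took 4.91% ± 0.657 of counted reads in Keluoxin and 3.82% ± 0.412 in model libraries (SD, n = 6 each). The ranges were 4.21% to 6.03% in Keluoxin and 3.42% to 4.39% in model libraries, and they overlapped. These shares are not TMM-scaled.

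Both 5p members had higher mean CPM in Keluoxin, and neither passed the test. miR-26a-5p stood at 36904, 38742, 36223, 38169, 44568 and 33725 CPM in Keluoxin 1 to 6, against 33788, 37531, 30745, 30854, 33720 and 37270 CPM in model 1 to 6. Keluoxin 5 was the highest library, models 3 and 4 were the lowest, and the groups overlapped. The mean was 38055 ± 3642 CPM in Keluoxin and 33985 ± 2959 CPM in model libraries (SD, n = 6 each), a log2 fold change of 0.16 (SE 0.084) with an adjusted p of 0.183 in edgeR's quasi-likelihood test with Benjamini-Hochberg adjustment over 800 arms.

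miR-26b-5p, which shares the seed but comes from the Ctdsp1 intron, stood at 8076, 8196, 6937, 7915, 8527 and 7101 CPM in Keluoxin 1 to 6, against 6445, 8147, 6135, 6219, 6608 and 6993 CPM in model 1 to 6. Models 2 and 6 lay within the Keluoxin range, so the groups overlapped. The mean was 7792 ± 634 CPM in Keluoxin and 6758 ± 746 CPM in model libraries (SD, n = 6 each), a log2 fold change of 0.21 (SE 0.090) with an adjusted p of 0.131 (edgeR). Without both model 1 and Keluoxin 4 it was 0.10, and that of miR-26a-5p 0.072.

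The 3p arms were read rarely in every library. miR-26a-2-3p, the arm that reports on the Ctdsp2 copy, had 68, 53, 84, 105, 10 and 65 reads in Keluoxin 1 to 6, against 76, 56, 122, 103, 69 and 37 reads in model 1 to 6. In CPM its mean was 11.7 ± 3.37 in Keluoxin and 14.1 ± 3.77 in model libraries (SD, n = 6 each), with a log2 fold change of −0.25 (SE 0.26, adjusted p 0.488, edgeR). Keluoxin 5, the shallowest library, was the lowest at 5.27 CPM.

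miR-26b-3p had 29, 20, 27, 26, 2 and 27 reads in Keluoxin 1 to 6, against 23, 34, 33, 25, 21 and 18 reads in model 1 to 6. Its mean was 4.03 ± 1.67 CPM in Keluoxin and 4.80 ± 0.730 CPM in model libraries (SD, n = 6 each), a log2 fold change of −0.22 (SE 0.30, adjusted p 0.600, edgeR). Both 3p arms overlapped between the groups. Without Keluoxin 5 the log2 fold change was −0.11 for miR-26a-2-3p and −0.051 for miR-26b-3p. At 2 to 122 reads per library, differences of the size of these standard errors were not detectable at this depth. Sequences read once are not listed, and what that takes from the 3p counts of each library was not tested.

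**Figure D1:**
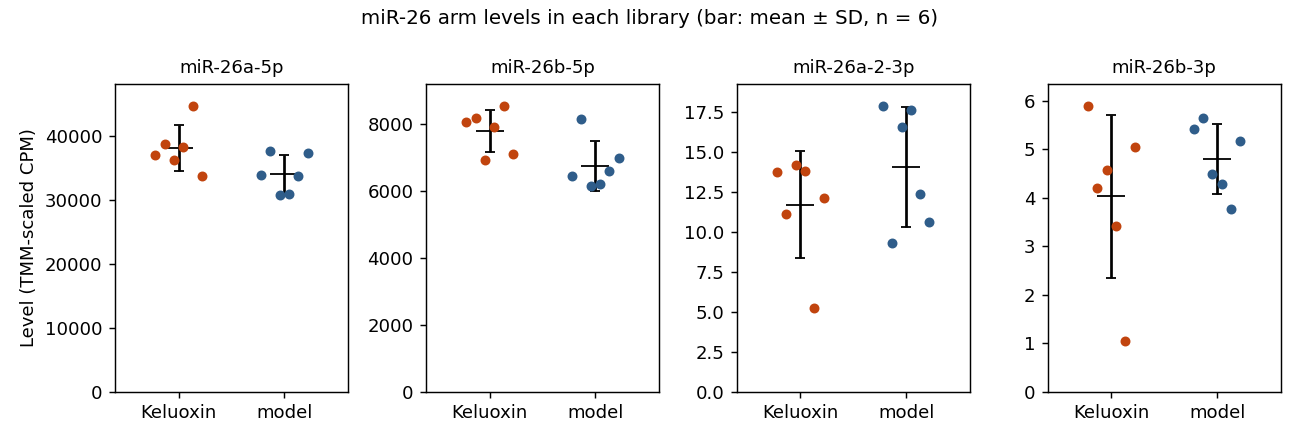
Level of the 4 miR-26 arms in TMM-scaled CPM (y axis, each panel with its own scale from 0) in 6 Keluoxin and 6 model libraries; points are libraries and bars are the mean ± SD. The groups overlap in every panel, and Keluoxin 5 is the lowest point of both 3p arms, at 5.27 CPM for miR-26a-2-3p.

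Of all 800 arms tested, 141 or 17.6% passed in either direction, 76 (9.5%) higher and 65 (8.12%) lower, so 0 of 4 tested miR-26 arms called is to be read against that background. The groups did not overlap for 7.38% of arms, and for none of the miR-26 arms. Of the 4, miR-26b-5p alone had an unadjusted p under 0.05, at 0.0407, and DESeq2 gave it an adjusted p of 0.173. At least 17.6% of all 800 arms lie under that unadjusted cut, since every arm that passed does. These are bulk libraries, in which fewer cells of a type and less RNA per cell cannot be told apart.

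The sign of the 5p values depended on how libraries were scaled. With upper quartile scaling the log2 fold change was −0.069 for miR-26a-5p and −0.026 for miR-26b-5p, while the median of all arms was −0.23. With total counted reads it was 0.35 for miR-26a-5p and 0.40 for miR-26b-5p, both passing at an adjusted p of 0.0367 (edgeR), and the median of all arms was 0.21. Relative to that median, miR-26a-5p lay higher by 0.15, 0.15, 0.16 and 0.14 and miR-26b-5p by 0.19, 0.19, 0.20 and 0.19 under TMM, RLE, upper quartile and total reads. With no filter on low counts the median of all arms was 0.31, and both 5p arms lay below it, at −0.13 relative to it for miR-26a-5p and −0.084 for miR-26b-5p. In DESeq2, which tested 2125 arms, the median was 0.27 and both again lay below it, at −0.13 and −0.084. On annotated precursors alone the median was −0.0054, and the offset was larger, at 0.29 for miR-26a-5p and 0.33 for miR-26b-5p.

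**Figure D2:**
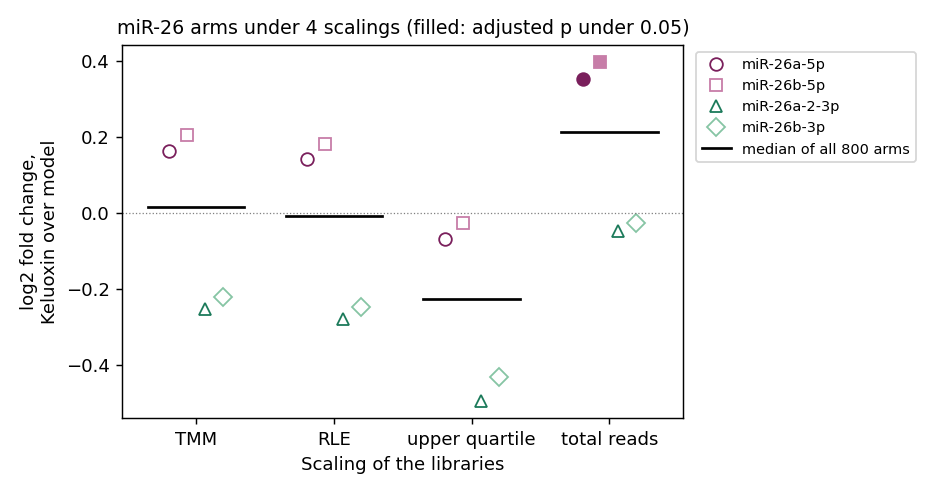
Log2 fold change, Keluoxin over model (y axis), of the 4 miR-26 arms under 4 scalings of the libraries (x axis); filled symbols passed at an adjusted p of 0.05 in edgeR and black lines are the median of all 800 arms. Both 5p arms lie above that median and both 3p arms below it under each scaling, while the sign of the 5p arms turns with upper quartile scaling.

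The 3p arms separated the miR-26a copies: all 848 miR-26a 3p reads were miR-26a-2-3p, from the Ctdsp2 intron. miR-26a-1-3p, from the Ctdspl intron, had 0 listed reads in each of the 12 libraries, so no test was possible; sequences read once are not in the tables. On the 5p side of mir-26a-1, 72 reads in 15 sequences matched it alone. A match allowed 1 difference, so these reads need not come from that copy. On the 5p side 254 reads matched mir-26a-2 alone. These few reads do not give the share of miR-26a-5p that each copy makes.

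Frequent 3p reads are given to show which copy they come from and where they start; for miR-26a-2-3p these are the first 4.
miR-26a-2-3p, 18.5% of the arm: cctgttcttgattacttgtttc
miR-26a-2-3p, 18.2% of the arm: cctgttcttgattacttgttt
miR-26a-2-3p, 11.4% of the arm: cctgttcttgattacttgtt
miR-26a-2-3p, 9.32% of the arm: tgttcttgattacttgtt
miR-26b-3p, 33.0% of the arm: cctgttctccattacttggct
The fourth of them begins 2 bases inside the annotated start, which changes the seed.

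miR-26b-5p and miR-26a-5p kept nearly the same proportion in both groups. The miR-26b share of 5p reads was 17.95%, 17.5%, 16.1%, 17.2%, 16.1% and 17.4% in Keluoxin 1 to 6, against 16.02%, 17.8%, 16.6%, 16.8%, 16.4% and 15.8% in model 1 to 6. Both groups span about the same values. The mean was 17.02% ± 0.781 in Keluoxin and 16.6% ± 0.718 in model libraries (SD, n = 6 each), a difference of 0.445 percentage points with p = 0.316 in a two-sided exact permutation test over 924 assignments. The sign turned, to −0.0136 and −0.113 points, when reads lying on both members with 1 difference were shared equally or left out. Such reads numbered 140454; 78.7% of them had C and 20.7% had T at the base where the 2 members first differ. For scale, a C-to-T change at the next base was seen in 0.120% of miR-26a-5p reads.

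Few of the 143 microRNAs with enough reads on both arms were as one-sided as these. Per 3p read there were 2629 reads of miR-26a-5p for miR-26a-2-3p and 1590 of miR-26b-5p for miR-26b-3p. By the log2 ratio of 5p to 3p reads miR-26a ranked 3 and miR-26b ranked 5 of 143 microRNAs. For miR-26a the log2 ratio averaged 11.71 ± 0.639 in Keluoxin and 11.27 ± 0.515 in model libraries (SD, n = 6 each). The difference was 0.44 (SE 0.31) with an adjusted p of 0.313 in limma. For miR-26b it averaged 11.01 ± 0.858 in Keluoxin and 10.44 ± 0.183 in model libraries, a difference of 0.57 (SE 0.33, adjusted p 0.230, limma). Neither ratio passed, against 29 of 143 (20.3%) over all microRNAs, and Keluoxin 5, with 10 and 2 reads on the 3p arms, was the highest library for both. Without Keluoxin 5 the difference was 0.19 for miR-26a (adjusted p 0.639) and 0.25 for miR-26b (adjusted p 0.3497, limma). The 3p counts lack sequences read once, and the part of this in the ratios of a shallow library was not tested.

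**Figure D3:**
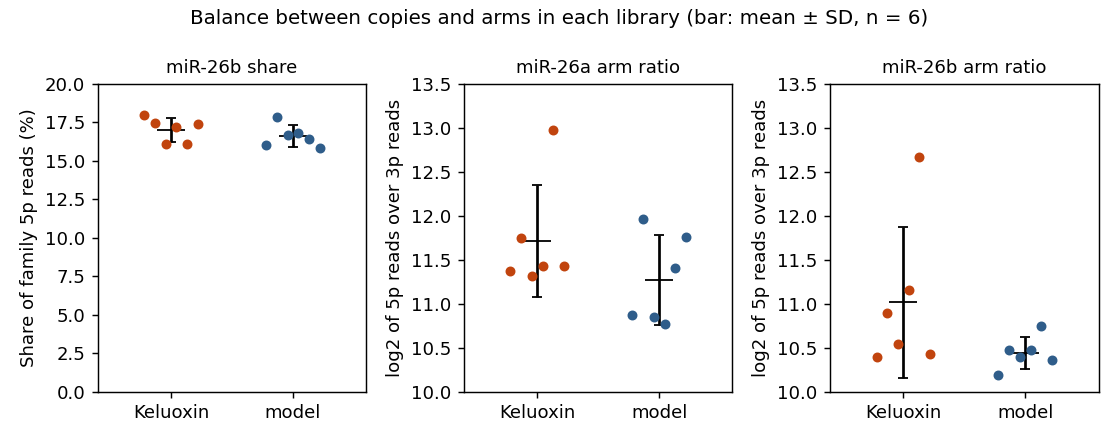
miR-26b share of family 5p reads in percent (left, from 0) and log2 of 5p over 3p reads for miR-26a and miR-26b (middle and right, axes starting at 10) in 6 Keluoxin and 6 model libraries; points are libraries and bars the mean ± SD. The shares lie between 15.8% and 17.95% in both groups, and the highest ratios, 12.98 and 12.66, are both Keluoxin 5.

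The ends of the 5p reads were then compared. Frequent reads of each member are shown in order of frequency, with a last base that differs from the precursor in capitals.
miR-26a-5p, 35.5%: ttcaagtaatccaggataggct
miR-26a-5p, 8.75%: ttcaagtaatccaggatagg
miR-26a-5p, 8.25%: ttcaagtaatccaggataggcA
miR-26a-5p, 6.98%: ttcaagtaatccaggataggcC
miR-26a-5p, 6.09%: ttcaagtaatccaggataggc
miR-26a-5p, 4.71%: ttcaagtaatccaggataggcG
miR-26a-5p, 3.59%: ttcaagtaatccaggataggT
miR-26a-5p, 3.08%: ttcaagtaatccaggataggctT
miR-26b-5p, 23.7%: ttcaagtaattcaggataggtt
miR-26b-5p, 21.6%: ttcaagtaattcaggataggt
miR-26b-5p, 7.76%: ttcaagtaattcaggatagg
miR-26b-5p, 5.05%: ttcaagtaattcaggataggtC
Percentages are of all reads of the arm over the 12 libraries. The full-length miR-26a-5p read matched the RefSeq form, whereas the leading miR-26b-5p read was 1 base longer than it, on a templated U. Tailing enzymes add untemplated A or U to microRNA ends; a U added where the precursor itself has U cannot be told from the template. Starts varied little. A shifted start was seen in 0.322% of miR-26a-5p reads in Keluoxin and 0.361% in model libraries, and in 0.0614% of miR-26b-5p reads in Keluoxin and 0.0954% in model libraries. Neither passed, against 1.17% of 257 arms (limma).

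miR-26a-5p was mainly 22 nt, at 61.6% to 70.8% of its reads in Keluoxin and 52.2% to 65.5% in model libraries. Its 20 nt form took 8.09% to 14.6% in Keluoxin and 11.7% to 22.2% in model libraries. miR-26b-5p was divided between 22 nt, at 40.1% to 48.5% in Keluoxin and 36.6% to 45.0% in model libraries, and 21 nt, at 33.6% to 40.4% in Keluoxin and 30.4% to 34.2% in model libraries. All these ranges overlap between the groups.

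Mean length was 21.70 ± 0.0873 nt in Keluoxin and 21.55 ± 0.0855 nt in model libraries for miR-26a-5p (SD, n = 6 each), a difference of 0.153 nt (SE 0.0494, adjusted p 0.0927, limma over 257 arms). For miR-26b-5p it was 21.41 ± 0.100 nt in Keluoxin and 21.29 ± 0.107 nt in model libraries, a difference of 0.127 nt (SE 0.0579, adjusted p 0.173, limma). Neither passed, against 3.89% of arms. Without Keluoxin 4 the miR-26a-5p difference was 0.185 nt and passed (adjusted p 0.0159).

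**Figure D4:**
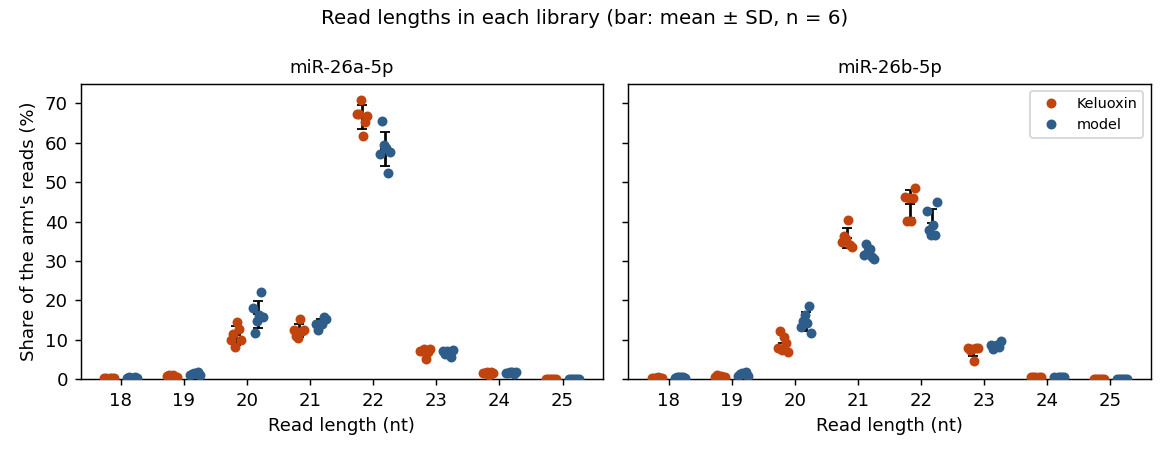
Share of reads of each length (y axis, percent of the arm's reads; x axis, 18 to 25 nt) for miR-26a-5p and miR-26b-5p in 6 Keluoxin and 6 model libraries; points are libraries and bars the mean ± SD. miR-26a-5p has 1 main length, 22 nt, and miR-26b-5p is divided between 21 and 22 nt in both groups.

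Among the untemplated ends, U fell on miR-26a-5p in Keluoxin. It ended 7.41%, 6.98%, 6.85%, 6.94%, 6.50% and 7.12% of miR-26a-5p reads in Keluoxin 1 to 6, against 7.90%, 7.43%, 8.61%, 8.66%, 7.34% and 7.998% in model 1 to 6. Keluoxin 1 lay within the range of the model libraries and the other 5 Keluoxin libraries lay below it. The mean was 6.97% ± 0.298 in Keluoxin and 7.99% ± 0.563 in model libraries (SD, n = 6 each), a difference of −1.02 points (SE 0.267, adjusted p 0.0138, limma). Over all arms the median difference was 0.00515 points, and 33.5% of arms passed, 17.5% higher and 16% lower. On miR-26b-5p an untemplated U was rarer, at 2.63% ± 0.292 in Keluoxin and 2.45% ± 0.215 in model libraries, and did not pass (adjusted p 0.465). The Mir26b precursor itself has U after the 20 nt and 21 nt forms of miR-26b-5p, so a U added to these is not counted. The U shares of the members are therefore not like measures, and their difference was not tested. Over the 12 libraries U ended 7.49% of miR-26a-5p reads, and 3.59% was a single 21 nt sequence with T in place of C21. That sequence also lies on miR-26b-5p with 1 difference. It was placed on miR-26a-5p by a rule chosen after seeing the data. The U shares were not computed with such reads shared equally or left out.

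An untemplated A fell on miR-26b-5p, at 9.51% ± 1.07 of its reads in Keluoxin and 11.4% ± 0.713 in model libraries (SD, n = 6 each). The difference was −1.89 points (SE 0.535, adjusted p 0.0230, limma), and the groups overlapped. The median over all arms was −1.26 points and 23.7% of arms passed lower. On miR-26a-5p it was 13.7% ± 1.54 in Keluoxin and 14.4% ± 0.918 in model libraries and did not pass (adjusted p 0.507). The miR-26b-5p call was lost without model 3, model 5 or Keluoxin 5, with adjusted p-values of 0.0515, 0.0534 and 0.0519, and without both model 1 and Keluoxin 4, at −1.43 points (adjusted p 0.0716).

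Reads that differ from the precursor were more frequent in Keluoxin libraries over the whole tables, at 43.9% to 50.6% of all reads in Keluoxin and 39.2% to 43.2% in model libraries. The part of that in the end shares was not tested. In the family, reads with no difference made up 47.8% ± 3.43 of miR-26a-5p reads in Keluoxin and 57.4% ± 2.59 in model libraries (SD, n = 6 each; adjusted p 0.000134, limma). For miR-26b-5p the values were 52.8% ± 3.13 in Keluoxin and 61.5% ± 3.22 in model libraries (adjusted p 0.000375, limma). Over all arms 82.9% passed lower, with a median difference of −7.58 points, against −9.59 and −8.75 points for miR-26a-5p and miR-26b-5p.

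Last bases C and G, internal mismatches and reads with an inserted or deleted base were all part of the excess. Reads with an inserted or deleted base made up 1.93% to 3.01% of miR-26a-5p in Keluoxin and 1.04% to 1.86% in model libraries. For miR-26b-5p they made up 1.07% to 1.75% in Keluoxin and 0.861% to 1.10% in model libraries. These shares were not tested and were not compared with those of other arms. A last C differing from the precursor rose to 10.1% ± 1.67 of miR-26a-5p reads in Keluoxin, against 6.49% ± 1.16 in model libraries (adjusted p 0.00364, limma), and to 13.17% ± 2.38 of miR-26b-5p reads in Keluoxin, against 8.77% ± 1.88 in model libraries (adjusted p 0.00747); 73.2% of all arms passed higher. A last G rose to 7.12% ± 1.82 of miR-26a-5p reads in Keluoxin, against 3.48% ± 0.364 in model libraries (adjusted p 0.00525, limma), and to 6.61% ± 1.40 of miR-26b-5p reads in Keluoxin, against 4.83% ± 0.624 in model libraries (adjusted p 0.0284); 64.2% of arms passed. The miR-26b-5p call for G was lost without model 2, model 3 or model 4, at adjusted p-values of 0.0577, 0.0590 and 0.0628. The last C of miR-26b-5p includes a 21 nt sequence, 4.51% of the arm, that also lies on miR-26a-5p with 1 difference. The C shares were not computed with such reads shared equally or left out.

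Internal mismatches stood at 11.8% ± 1.14 of miR-26a-5p reads in Keluoxin and 8.91% ± 0.730 in model libraries (adjusted p 0.00245, limma), and at 13.9% ± 0.853 of miR-26b-5p reads in Keluoxin and 10.1% ± 0.813 in model libraries (adjusted p 0.000305). Neither pair of groups overlapped, but the share of all arms without overlap was not computed for this measure. A T in place of C21 inside the read made up 1.355% of miR-26a-5p reads, and a C in place of U21 made up 1.903% of miR-26b-5p reads. Such sequences can also lie on the other member with 1 difference, and were placed by the rule chosen after seeing the data. The mismatch shares were not computed with them shared equally or left out. Of all arms 70.8% passed higher for internal mismatches. Within the seed they did not pass: mismatches at bases 2 to 8 made up 1.41% ± 0.297 of miR-26a-5p reads in Keluoxin and 1.67% ± 0.112 in model libraries (adjusted p 0.696), and 0 of 257 arms passed in limma, with 19 at an unadjusted p under 0.05, neither miR-26a-5p (0.0648) nor miR-26b-5p (0.152) among them. A share near the background is not a result about the family.

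**Figure D5:**
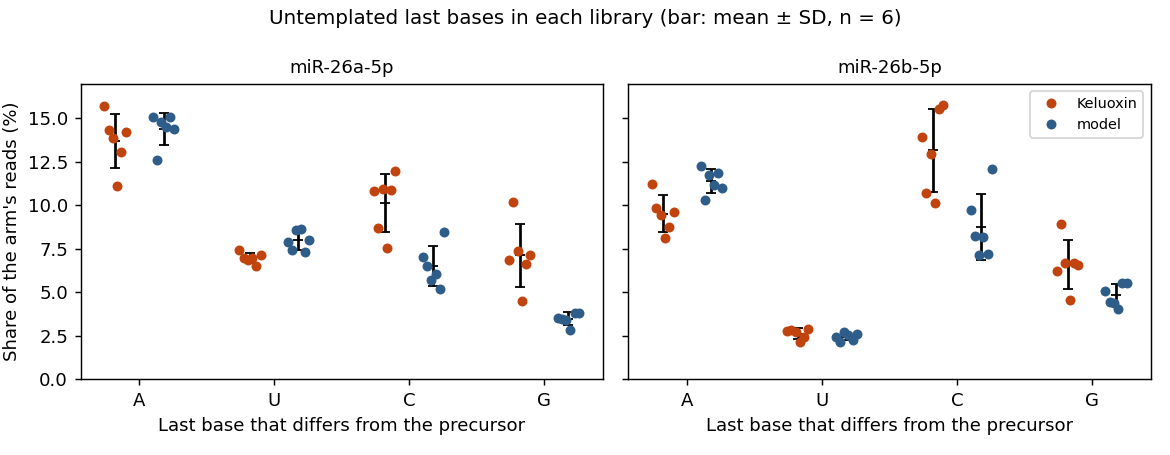
Share of miR-26a-5p and miR-26b-5p reads (y axis, percent of the arm's reads) whose last base is an A, U, C or G that differs from the precursor, in 6 Keluoxin and 6 model libraries; points are libraries and bars the mean ± SD. U is lower in Keluoxin on miR-26a-5p (6.97% against 7.99%) and C and G are higher in Keluoxin on both members.

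Arms were ranked by their root mean square distance to miR-26a-5p in centred log2 CPM over the 12 libraries, among 176 arms of at least 100 CPM. The distance is not scaled by how much an arm varies, so an arm that varies little can also lie near without sharing a pattern. The nearest was miR-26b-5p, at 0.0741, followed by miR-1843a-5p at 0.121, miR-1843b-5p at 0.123, miR-204-5p, of the pigment epithelium, at 0.152, and miR-218-5p, a neuronal microRNA, at 0.154. The median distance was 0.312. All arms of a library share its depth and scaling, so this is a description.

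Of microRNAs that act in the same REST and phosphatase circuit, 0 of 5 passed in either direction in edgeR, 1 (miR-124-3p) at an unadjusted p under 0.05, and 0 passed in DESeq2. Over all arms 17.6% of 800 passed in edgeR and 10.9% of 2125 in DESeq2. Arms that passed in edgeR are also under the unadjusted cut, so at least 17.6% of all arms lie under it. Their median log2 fold change was −0.25, beside 0.017 over all 800 arms. miR-9-5p, which represses REST, averaged 58498 ± 13166 CPM in Keluoxin and 69518 ± 3866 CPM in model libraries (SD, n = 6 each; log2 −0.25, adjusted p 0.232, edgeR). miR-124-3p, a neuronal microRNA that represses CTDSP1, averaged 36820 ± 7903 CPM in Keluoxin and 46796 ± 6781 CPM in model libraries (log2 −0.35, adjusted p 0.123, edgeR). These 5 also include 2 of the neural retina markers.

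Of 22 microRNAs that restrain the cell cycle, the let-7, miR-15, miR-34 and miR-101 families, 19 were tested and 0 passed in edgeR, against 17.6% of all arms, with a median log2 fold change of 0.091; the other 3 were below the filter on low counts. The most abundant were let-7g-5p, at 33072 ± 9890 CPM in Keluoxin and 31836 ± 5090 CPM in model libraries (SD, n = 6 each; log2 0.055, adjusted p 0.860, edgeR), and let-7f-5p, at 26084 ± 6965 CPM in Keluoxin and 25260 ± 2942 CPM in model libraries (log2 0.046, adjusted p 0.860, edgeR). At an unadjusted p under 0.05 in edgeR the members were miR-15a-5p, miR-497a-5p, miR-34a-5p and miR-101b-3p, chosen here after their values were seen. The first 3 had positive and the last a negative fold change. At least 17.6% of all 800 arms lie under that unadjusted cut, since every arm that passed does. DESeq2, which tested all 22, called 1, miR-34b-5p, with 20 reads over the 12 libraries, against 10.9% of all arms.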

How the data were processed

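Per the labels' protocols, an NEBNext small RNA kit and 1 µg of total RNA were used, with inserts of 15 to 35 nt. Tools named in the submitters' processing notes are Novoalign, Bowtie, cutadapt and bcl2fastq, with the miRBase release and genome build not given in the sources used here. Per the file headers, a deposited table gives for every read sequence its count, in raw reads; sequences are 15 to 51 nt long and were read at least 2 times. Each aligned with at most 1 difference.

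Undivided reads were counted once per arm; copies were joined on an arm where over 0.5 of reads are shared. Reads on several microRNAs went to the one on which the difference lies in the last 3 bases, and were otherwise shared equally and rounded; this rule, and the measures of last C, last G, no difference and seed mismatches, were chosen after seeing the data. Levels were tested with edgeR 4.0.16 in R 4.3.3 (TMM, filter on low counts, quasi-likelihood), ratios (pseudocount 0.5) and read ends (at least 50 reads in every library) with limma 3.58.1, with Benjamini-Hochberg adjustment at 0.05; these steps were tested on simulated data. Sequences come from RefSeq, hosts from GENCODE M21. All family arms are named, with the 5 nearest arms and, of each list, the 2 most abundant and any called. Members and lists were chosen with earlier results of these data known. Depth limits the precision of the rare 3p arms. Sequences read once are not listed, so 3p counts can also be too low, by an unknown part that can differ with depth. No 2 libraries agreed within sampling noise. Alternatives were other scalings, DESeq2 1.42.0, filters, read sets, a replicate block and each library left out.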

Additional observations from a re-analysis of the deposited data

Results flagged for a closer look

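In 50 groups of 6 libraries, 5 values lay far from the others of their group; by chance about 1 in 20 groups does. Keluoxin 5 had 5.27 CPM of miR-26a-2-3p, with the other Keluoxin libraries at 11.1 to 14.2 CPM. Its log2 ratio of 5p to 3p reads was 12.98 for miR-26a, with the others at 11.31 to 11.75, and 12.66 for miR-26b, with the others at 10.40 to 11.15. These rest on 10 reads of miR-26a-2-3p and 2 of miR-26b-3p in a library of 1933375 reads, counts that lack sequences read once. Model 2 had an untemplated last A on 12.6% of miR-26a-5p reads, with the other model libraries at 14.4% to 15.1%. Keluoxin 4 had no difference in 54.4% of miR-26a-5p reads, with the other Keluoxin libraries at 44.7% to 48.3%.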

How the results depend on the processing

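Of 438 alternative values other than counts of arms called, 419 kept their direction and side of the threshold; 17 of 25 such counts stayed within 1.5 times of the main count. With upper quartile scaling the log2 fold change turned to −0.069 for miR-26a-5p and −0.026 for miR-26b-5p; with total reads it passed at 0.35 and 0.40, and on annotated precursors alone miR-26b-5p passed at 0.33 (adjusted p 0.0349, edgeR). Leaving out 1 library gave 0.10 to 0.22 for miR-26a-5p and 0.16 to 0.27 for miR-26b-5p, which passed without model 2 (adjusted p 0.0481). The miR-26b share turned to −0.0136 and −0.113 points with ambiguous reads shared equally or left out. Arms called numbered 141 of 800 tested, against 231 of 2125 in DESeq2, 76 of 504 on annotated precursors, 222 of 790 without model 1 and Keluoxin 4 (chosen after seeing the data), and 65 to 238 with 1 library left out, the extremes without model 4 and model 1; below 94 also without model 3 (74), model 5 (75) and Keluoxin 6 (86). Higher and lower calls were 76 and 65, against 73 and 110 with upper quartile scaling, 87 and 23 with total reads and 63 and 35 with no filter. For miR-26a-5p length, the share of reads of 22 nt or more passed as a log2 odds difference of 0.57. The difference in mean length passed without model 1 and Keluoxin 4 (0.183 nt) and ran between 0.121 and 0.185 nt with 1 library left out; that of miR-26b-5p passed without the pair at 0.174 nt. The untemplated A of miR-26b-5p was −1.43 points without the pair and −2.23 to −1.61 with 1 library left out. The cause was not tested.

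Same-numbered libraries deviated together with correlations of 0.0232 to 0.222, under 0.1 in 2 of 6, so the numbers were not taken as pairs. With the replicate number as a block, 117 arms were called, the log2 fold changes were 0.16, 0.21, −0.27 and −0.32 for miR-26a-5p, miR-26b-5p, miR-26a-2-3p and miR-26b-3p, and no miR-26 call changed. Depth limits the 3p arms; no test of miR-26a-1-3p or of the miR-26a-1 share of 3p reads could be run, since no such read was listed.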
